A study of Mus musculus with 51 samples.

Results

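The genes described here are 32 components, receptors and regulators of the complement system, and the measurements show which sorted lung fraction held the RNA of each and how that RNA differed after bleomycin. They were chosen by symbol from a list that uses no measured value in its rule but was drawn up with earlier results of these data known, and all 32 symbols were found among the 36528 gene identifiers of the count table. The members are the chains and proteases of the first component (C1qa, C1qb, C1qc, C1ra, C1s1, C1rl), the lectin pathway genes (Masp1, Masp2, Fcna, Fcnb), the components cleaved next (C2, C4b, C3), the alternative pathway genes (Cfb, Cfd, Cfp), the terminal components (Hc, C6, C7, C8g, C9), the receptors and binding proteins (C3ar1, C5ar1, C5ar2, Cr2, Vsig4, C1qbp) and the regulators (Cfi, Cd55, Cd59a, Cr1l, Cd46).

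The lungs came from male C57/B6 mice, all without a named genetic change, given either saline or bleomycin into the trachea and examined on day 14. Bleomycin is a DNA-damaging drug that injures the alveolar lining and is followed by fibrosis. The design text lists 5 saline and 8 bleomycin animals, and an age is not given in the sources used here. Cells were sorted by surface marker into an epithelial fraction (EpCAM+), leukocytes (CD45+), endothelial cells (CD31+) and a triple-negative rest that carried none of the 3, and total RNA was sequenced from stranded libraries. The 51 libraries are 5 saline libraries of each fraction, 7 bleomycin CD31+ libraries and 8 bleomycin libraries of each other fraction.

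Complement is a cascade of plasma proteases and binding proteins that marks particles for uptake, releases small peptides that attract leukocytes, and assembles a pore in membranes. The classical pathway starts with C1q and its proteases, the lectin pathway with ficolins or collectins and the MASP proteases, and the alternative pathway with factors B and D, and all of them cleave C3 and then C5. Much of the circulating protein is made in the liver, while macrophages, fibroblasts and epithelial cells are known local sources, and host cells carry regulators that stop the cascade on their own surface.

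Promoter sequences are shown for 4 members whose RNA was far higher in 1 fraction than in the others: C1qb and C1qc, highest in CD45+ cells, and C1ra and C7, highest in triple-negative cells. Each runs 5′ to 3′ from 250 bases before to 50 bases after the annotated start, from RefSeq on GRCm38.p6. Capitals mark each match, on either strand, to the Ets-type core GAGGAA (the core letters bound by PU.1, a myeloid factor) or to TTCNNNGAA (the GAS pattern bound by STAT factors).
C1qb (chr4:136886151-136886450, - strand): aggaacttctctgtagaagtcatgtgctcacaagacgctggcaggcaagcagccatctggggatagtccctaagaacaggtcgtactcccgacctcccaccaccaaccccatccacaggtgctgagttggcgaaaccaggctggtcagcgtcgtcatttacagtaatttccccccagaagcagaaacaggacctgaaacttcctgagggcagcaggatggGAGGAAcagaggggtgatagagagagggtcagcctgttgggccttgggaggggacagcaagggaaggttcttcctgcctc
C1qc (chr4:136892865-136893164, - strand): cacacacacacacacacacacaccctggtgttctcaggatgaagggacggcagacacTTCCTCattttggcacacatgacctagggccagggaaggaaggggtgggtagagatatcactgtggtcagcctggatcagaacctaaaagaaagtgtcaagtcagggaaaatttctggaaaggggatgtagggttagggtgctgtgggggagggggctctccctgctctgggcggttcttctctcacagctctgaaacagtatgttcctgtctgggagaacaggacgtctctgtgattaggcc
C1ra (chr6:124512371-124512670, + strand): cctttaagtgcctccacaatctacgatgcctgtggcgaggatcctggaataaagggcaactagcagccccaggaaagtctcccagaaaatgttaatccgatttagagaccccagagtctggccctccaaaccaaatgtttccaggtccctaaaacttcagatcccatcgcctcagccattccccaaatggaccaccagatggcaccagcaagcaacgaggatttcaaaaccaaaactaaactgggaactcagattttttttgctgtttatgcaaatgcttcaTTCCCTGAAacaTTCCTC
C7 (chr15:5063724-5064023, - strand): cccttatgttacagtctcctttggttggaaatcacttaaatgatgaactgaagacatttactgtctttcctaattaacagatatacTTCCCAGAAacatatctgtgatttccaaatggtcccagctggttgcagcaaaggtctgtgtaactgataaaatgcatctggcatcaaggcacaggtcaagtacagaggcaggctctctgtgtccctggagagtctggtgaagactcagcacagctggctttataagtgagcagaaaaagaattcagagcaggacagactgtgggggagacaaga
The table held 29 promoters of 26 members. GAGGAA was present in 8 of the 29 (C1qb, C1qc, C1ra, C5ar2, Cd59a, Cfp, Fcna and Vsig4), against 28.3% of 32851 promoters of all genes. TTCNNNGAA was present in 3 of the 29 (C1ra, C7 and Masp2), against 8.30% of all promoters. The AP-1 pattern TGANTCA was present in 3 (C1qbp, C3ar1 and C8g), against 7.81% of all. These are matches of letters in a short window and describe the sequence only.

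Several members lie side by side in the genome. C1qb, C1qc and C1qa follow each other on 1 strand of chromosome 4, separated by 3.60 and 2.98 kb. Cfb and C2 are 87 bases apart on the same strand of chromosome 17, and the annotated ends of Cd46 and Cr1l overlap by 74 bases on chromosome 1, so reads there cannot be assigned with certainty. C1rl, C1ra and C1s1 neighbour each other on chromosome 6, and C5ar2 and C5ar1 on chromosome 7.

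Library totals ran from 15.7 M to 36.5 M counts (M, mega; median 22.7 M). Summed over 12 markers each, epithelial genes stood at 91910 to 160300 CPM (the usual scaling of a library's counts to a fixed total, here on TMM-scaled library sizes) in EpCAM+ libraries and at no more than 9598 CPM in the others. Endothelial markers stood at 21100 to 33960 CPM in CD31+ libraries and at most at 1294 CPM elsewhere, and leukocyte markers at 8615 to 10170 CPM in CD45+ libraries and at most at 492.8 CPM elsewhere. Mesenchymal markers stood at 32350 to 77830 CPM in triple-negative libraries and at most at 7566 CPM elsewhere. That highest value belonged to the library labelled Bleomycin_CD45_613, against a median of 426.1 CPM in its group. Among CD31+ libraries, Bleomycin_CD31_621 had the most epithelial RNA (9598 CPM, group median 2385) and the most leukocyte RNA (492.8 CPM, group median 173.3). Values without 1 of these libraries are given beside the results that it moved most. In sorted bulk RNA, fewer cells of a type and less RNA per cell cannot be told apart.

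In saline lungs the cascade was split between fractions. Of the 32 members, 11 had their highest mean in CD45+ cells (C1qa, C1qb, C1qc, Fcna, Cfp, C3ar1, C5ar1, Cr2, Vsig4, C1qbp and, level with triple-negative cells, Cd55). Another 10 were highest in triple-negative cells (C1ra, C1s1, C1rl, Masp1, C2, C4b, C3, Cfb, C7 and Cd59a). EpCAM+ cells led for 4 (Hc, C6, C5ar2 and Masp2) and CD31+ cells for 4 (C8g, Cfi, Cr1l and Cd46), and 3 stayed under 1 CPM in every fraction (C9, Cfd and Fcnb). The leading fraction was above the second one past the threshold (adjusted p under 0.05, edgeR quasi-likelihood test, Benjamini-Hochberg over all genes) for 10, 8, 3 and 2 members of these 4 groups. Levels differed between fractions for all 29 members tested, but so they did for 97.4% of all genes, and in bleomycin lungs for 29 of 30 members and 97.5% of all genes. The libraries of 1 animal can stand in several fractions and were treated as independent.

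**Figure D1:**
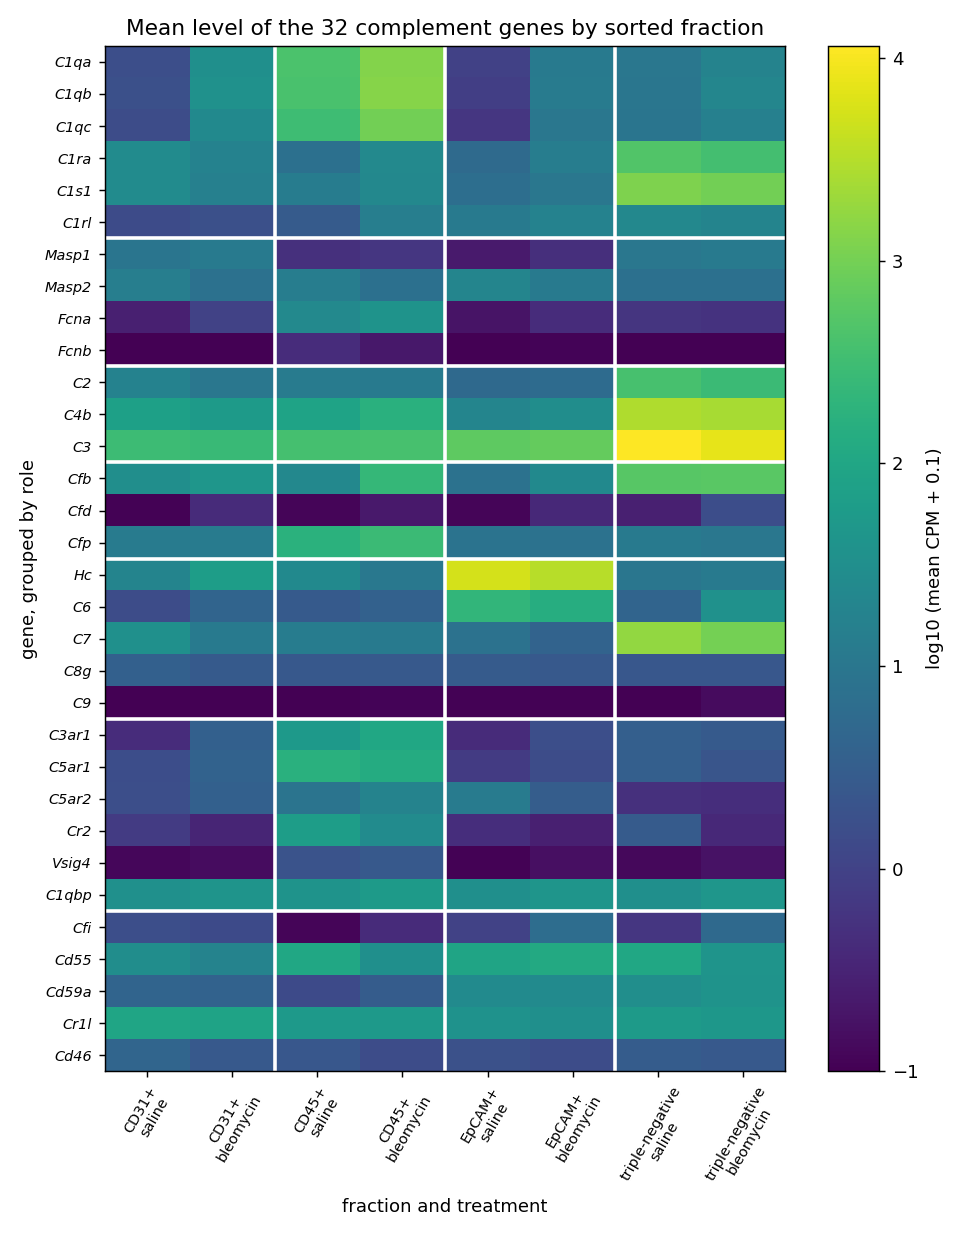
Mean level of each of the 32 genes (rows, grouped by role between white lines) in the 8 groups of libraries (columns, saline and bleomycin side by side for each fraction); colour is log10 of the mean CPM plus 0.1. C3 reached its highest mean, 11490 CPM, in saline triple-negative cells, Hc was high in the EpCAM+ columns and the C1q genes in the CD45+ columns.

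Per kilobase of exon, the most abundant member was C3, at 2236 CPM per kb in saline triple-negative cells. Hc stood at 1004 CPM per kb in saline EpCAM+ cells, C7 at 653.2 and C4b at 525 in triple-negative cells, and C1qa at 410.4 in CD45+ cells. After bleomycin C3 in triple-negative cells (1462 CPM per kb) and C1qa in CD45+ cells (1293 CPM per kb) stood close to each other.

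After bleomycin, 7 of 27 tested members were higher and 7 lower in CD31+ cells, against 24.2% and 24.6% of all genes tested there (48.8% in either direction). In CD45+ cells 11 of 28 were higher and 4 lower, against 28.4% and 26.8% of all genes (55.3% in either direction). In EpCAM+ cells 10 of 25 were higher and 5 lower (31.2% and 28.9% of all genes, 60.2% together), and in triple-negative cells 5 of 27 were higher and 8 lower (27.7% and 27.7%, 55.4% together). Counted in either direction, these shares of members lie near those of all genes. In CD45+ and EpCAM+ cells more members were higher and fewer lower than among all genes, and in triple-negative cells fewer were higher. At 2-fold, as counted further below, the share of higher members was above that of all genes in each fraction. The saline and bleomycin libraries did not overlap for 8 of 27 members in CD31+ and 11 of 28 in CD45+ cells. They did not for 7 of 25 in EpCAM+ and 8 of 27 in triple-negative cells. Over all genes tested 26.3%, 32.2%, 36.1% and 29.4% did not overlap in these 4 fractions, so a lack of overlap was common. No test was made of the members as a set, so the counts by themselves show nothing particular to complement. The median log2 change (bleomycin minus saline) of the tested members was -0.09, 0.54, 0.43 and -0.15 in CD31+, CD45+, EpCAM+ and triple-negative cells, against values between -0.01 and 0.02 over all genes. Without Bleomycin_CD45_613, 17 members passed in CD45+ cells in place of 15, and without Bleomycin_CD31_621, 15 passed in CD31+ cells in place of 14.

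**Figure D2:**
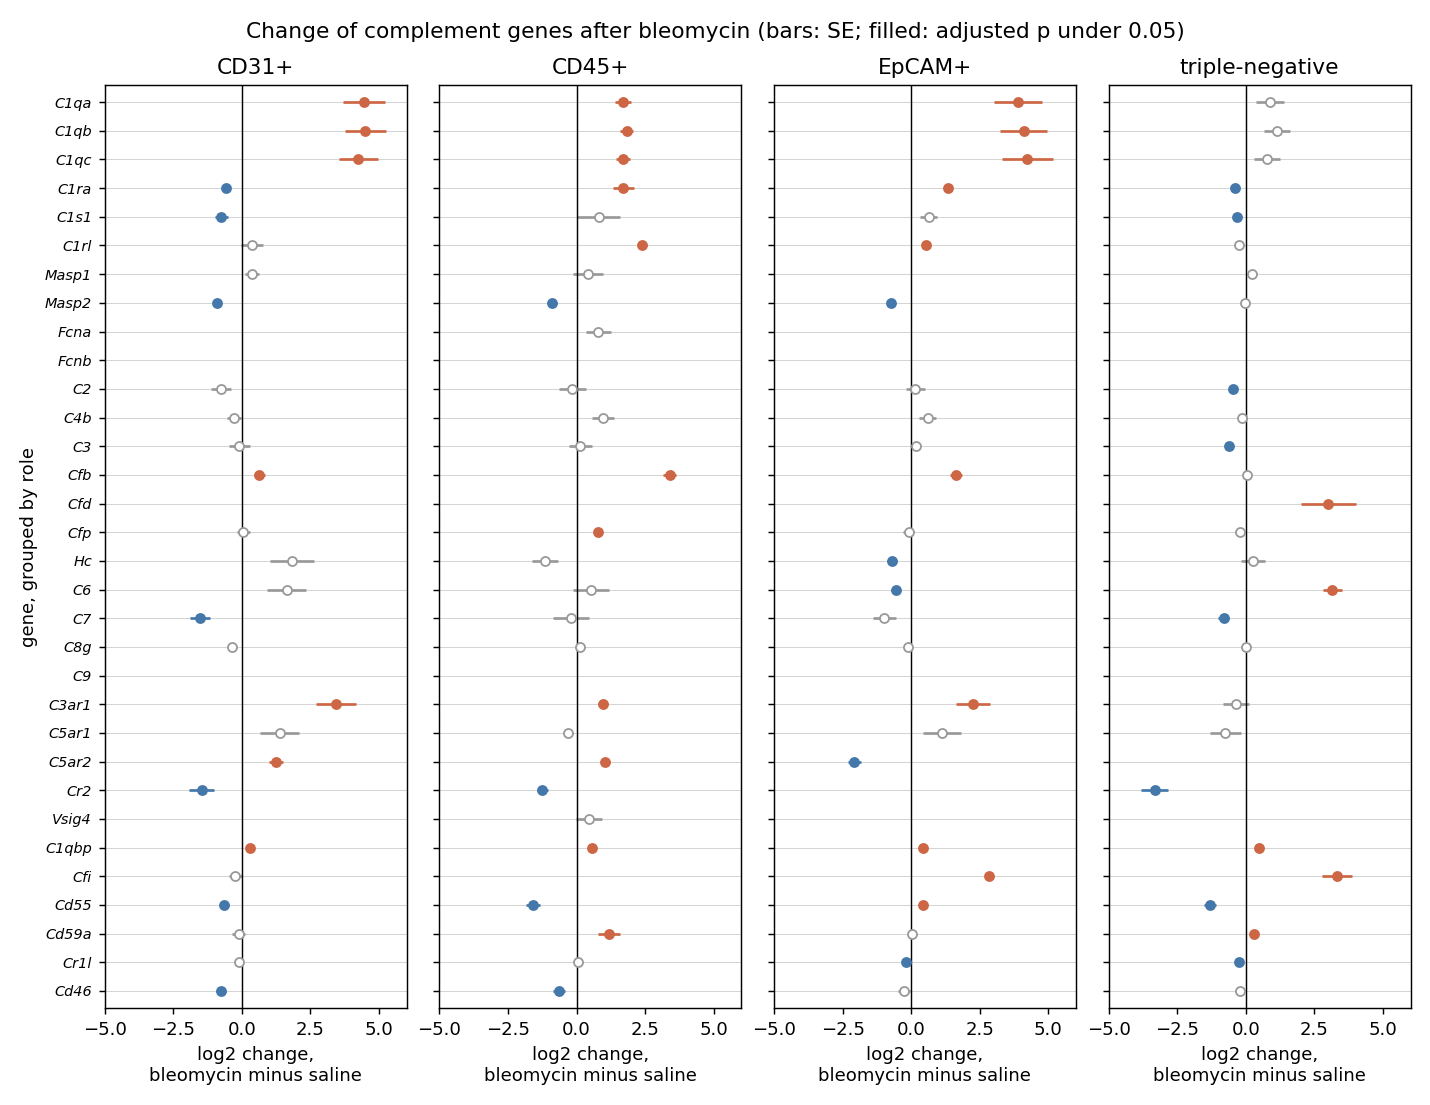
Log2 change of each tested member (bleomycin minus saline, x axis) in the 4 fractions (panels); points are estimates from 1 fit per fraction, bars are standard errors, filled points passed an adjusted p of 0.05 (red higher, blue lower) and open points did not. Members absent from a panel were removed there for low counts. The largest rises were those of C1qa, C1qb and C1qc in CD31+ and EpCAM+ cells, and Cr2 fell by 3.33 in triple-negative cells.

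The bleomycin effect itself differed between the 4 fractions for 19 of the 30 members tested (F test over 3 interaction terms), against 64.3% of all genes. The lowest adjusted p-values were those of Cfb (adjusted p = 9.72e-13), C5ar2 (adjusted p = 3.28e-11), C1ra (adjusted p = 1.61e-09), C1rl (adjusted p = 5.89e-09) and Cd55 (adjusted p = 2.09e-07). Differences between 2 fractions are given below as log2 values with their SE, always as the fraction that comes first in the order CD31+, CD45+, EpCAM+, triple-negative minus the later one.

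C1qa, C1qb and C1qc encode the 3 chains of C1q, the molecule that recognises antibody complexes and dying cells and starts the classical pathway. All 3 rose in CD45+, CD31+ and EpCAM+ cells after bleomycin and did not pass the test in triple-negative cells. In CD45+ cells C1qa stood at 647.1, 271, 253, 242 and 721 CPM in the 5 saline libraries and at 966 to 1733 CPM (median 1331) in the 8 bleomycin libraries, a log2 change of 1.70 ± 0.28 (SE, adjusted p = 0.000212). C1qb stood at 581, 279.5, 264, 250.6 and 662.9 CPM and at 1055 to 1702 CPM (median 1413), a log2 change of 1.82 ± 0.25 (adjusted p = 2.93e-05). C1qc stood at 477, 203, 201, 185 and 502 CPM and at 748 to 1218 CPM (median 981), a log2 change of 1.69 ± 0.26 (adjusted p = 8.98e-05). No bleomycin library overlapped the saline range for any of the 3 chains, and Saline_CD45_644 and Saline_CD45_648 were the highest of their group for each. Beside these rises, 6 of 12 macrophage and monocyte markers rose and 1 fell in CD45+ cells. Their sum ran from 2053 to 3009 CPM after saline and from 3266 to 4004 CPM after bleomycin. The same gain stands beside the other rises in CD45+ cells given below, and its part was not tested.

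In CD31+ cells the level of C1q was low after saline. C1qa stood there at 1.70, 1.49, 2.31, 0.726 and 1.44 CPM in saline libraries and at 6.31 to 82.1 CPM (median 24.48) after bleomycin, a log2 change of 4.45 ± 0.76 (adjusted p = 0.000536). C1qb stood at 2.17, 0.909, 2.48, 0.512 and 2.18 CPM and then at 9.33 to 87.97 CPM (median 26.8), with a log2 change of 4.49 ± 0.75 (adjusted p = 0.000452). C1qc stood at 1.498, 1.13, 2.11, 0.896 and 1.31 CPM and then at 6.73 to 65.1 CPM (median 18.3), with a log2 change of 4.24 ± 0.71 (adjusted p = 0.000485). The groups did not overlap, and Bleomycin_CD31_621 was the highest library for each chain; without it the log2 changes ran from 3.78 to 4.07. The same fraction gained RNA of leukocyte genes: 6 of 12 leukocyte markers rose and 0 fell, and 6 of 12 macrophage and monocyte markers rose and 1 fell. The summed macrophage and monocyte list ran from 65.5 to 111.1 CPM in saline and from 93.6 to 348.9 CPM in bleomycin CD31+ libraries, with none of its markers at 0 in a whole group. The mean C1qa level in bleomycin CD31+ cells was 2.40% of that in bleomycin CD45+ cells, where the 12 macrophage and monocyte markers had a median of 3.41% (range 1.25% to 16.6%). The part of these other cells in the rise was not tested.

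The EpCAM+ fraction showed a rise of like size, with more spread between libraries. C1qa stood at 0.313, 0.707, 2.19, 0.421 and 0.642 CPM in saline EpCAM+ libraries and at 1.10 to 33.47 CPM (median 9.29) after bleomycin, a log2 change of 3.88 ± 0.87 (adjusted p = 0.00182). C1qb stood at 0.448, 0.754, 1.40, 0.888 and 0.264 CPM and at 1.14 to 32.6 CPM (median 9.15) (log2 change 4.10 ± 0.87, adjusted p = 0.00121). C1qc stood at 0.0896, 0.989, 1.03, 0.281 and 0.302 CPM and at 0.869 to 24.7 CPM (median 6.39) (log2 change 4.23 ± 0.93, adjusted p = 0.00154). The lowest bleomycin library lay within the saline range for each chain, so the groups overlapped. Within the first of the 2 runs of columns in which the deposited table lists the libraries, which no label explains, C1qa (log2 change 4.62), C1qb (4.03) and C1qc (3.96) did not pass in EpCAM+ cells. Of the leukocyte markers 3 of 12 rose and 0 fell in EpCAM+ cells, and of the macrophage and monocyte markers 3 rose and 1 fell; the summed macrophage and monocyte list ran from 45.3 to 64.7 CPM in saline and from 51.2 to 146.5 CPM in bleomycin libraries. C1qa in bleomycin EpCAM+ cells was 0.918% of its CD45+ level, beside a median of 1.67% for the macrophage and monocyte markers, and the part of these cells was not tested.

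In triple-negative cells C1qa stood at 15.7, 5.12, 15.7, 2.97 and 11.04 CPM in saline and at 6.25 to 45.4 CPM (median 16.8) in bleomycin libraries, and the change did not pass the test for C1qa (adjusted p = 0.161), C1qb (adjusted p = 0.0558) or C1qc (adjusted p = 0.198). The rise of C1qa was larger in CD31+ than in CD45+ cells (difference of log2 changes 2.82 ± 0.84, adjusted p = 0.00627) and larger than in triple-negative cells (3.62 ± 0.86, adjusted p = 0.00124), while CD31+ and EpCAM+ cells were not told apart (0.60 ± 0.97, adjusted p = 0.702). The chains kept a like ratio to each other in the fraction that held most of them: C1qb was 0.897 to 1.05 times C1qa in saline and 0.982 to 1.09 times in bleomycin CD45+ libraries.

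C1q was also set beside Csf1r, the receptor gene of macrophage growth factor and a marker of macrophages and monocytes. Csf1r itself did not pass in CD45+ cells (log2 change 0.23 ± 0.11, adjusted p = 0.0758, edgeR), unlike 6 macrophage and monocyte markers that rose there. The summed C1q level was 0.795 to 1.82 times that of Csf1r in saline CD45+ libraries and 2.91 to 5.04 times in bleomycin CD45+ libraries. In CD31+ libraries the same ratio was 0.454 to 0.822 after saline and 2.78 to 4.24 after bleomycin, so bleomycin CD31+ libraries lay near bleomycin CD45+ libraries in this ratio at a much lower level of both. In bleomycin EpCAM+ libraries the ratio ran from 0.141 to 2.63, and in triple-negative libraries from 0.876 to 1.10 after saline and 1.19 to 4.10 after bleomycin. Among bleomycin EpCAM+ libraries Csf1r ran only from 16.9 to 34.5 CPM, while Itgb2, another leukocyte marker, ran from 2.97 to 59.8 CPM. The ratio in EpCAM+ libraries can therefore not be read as C1q per macrophage. The genes of a ratio share the library and its total, and the ratios are descriptions with no test.

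**Figure D3:**
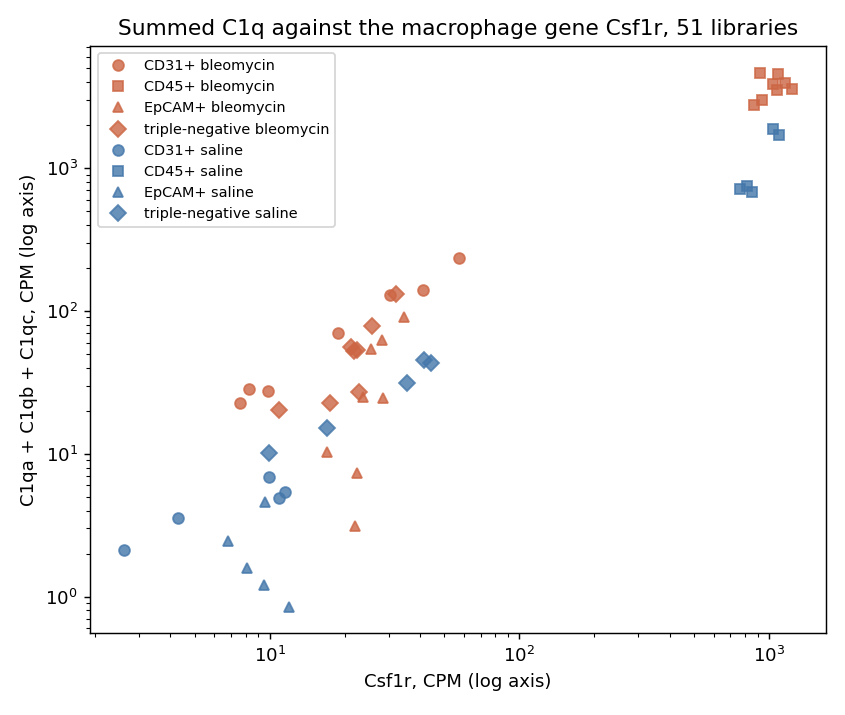
Summed level of C1qa, C1qb and C1qc (y axis, CPM, log axis) against the macrophage and monocyte gene Csf1r (x axis, CPM, log axis) in each of the 51 libraries; shapes are fractions, blue is saline and red bleomycin. Bleomycin CD45+ and CD31+ libraries have ratios of 2.78 to 5.04 between the 2 axes and saline ones 0.454 to 1.82, while most EpCAM+ libraries lie lower at a like level of Csf1r. In bleomycin EpCAM+ libraries Csf1r varied far less than the leukocyte marker Itgb2, so their ratios cannot be read as C1q per macrophage.

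The serine proteases of the first component followed another pattern. C1ra, the mouse C1r that activates C1s, and C1s1, which cleaves C4 and C2, were mostly RNAs of triple-negative cells and fell there. C1ra stood at 469.6, 552, 446, 459 and 474 CPM in saline triple-negative libraries and at 295 to 425 CPM (median 366) after bleomycin (log2 change -0.41 ± 0.09, adjusted p = 0.00129), with no overlap. C1s1 stood at 1229, 1269, 1133, 1197 and 1282 CPM and at 812 to 1171 CPM (median 981) (log2 change -0.32 ± 0.09, adjusted p = 0.00587), and its groups overlapped. In CD31+ cells both also fell, C1ra by 0.58 (adjusted p = 4.77e-05) and C1s1 by 0.75 (adjusted p = 0.0159) on the log2 scale. Beside these falls, 6 of 12 mesenchymal markers fell and 0 rose in CD31+ cells (sums of 501.5 to 1290 CPM after saline and 258.6 to 1358 CPM after bleomycin). Of 6 adventitial fibroblast markers 5 fell and 1 rose there, while their sum ran from 1810 to 2344 CPM after saline and from 1926 to 2774 CPM after bleomycin. The part of these cells was not tested.

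C1ra rose in CD45+ and EpCAM+ cells, from a low level. It stood at 10.7, 6.15, 6.52, 2.80 and 10.6 CPM in saline CD45+ libraries and at 14.2 to 55.4 CPM (median 18.95) after bleomycin, with a log2 change of 1.70 ± 0.38 (adjusted p = 0.00198). The groups did not overlap, and the highest value, 55.4 CPM, was that of Bleomycin_CD45_613, without which the log2 change was 1.37. Of 12 mesenchymal markers 4 rose and 0 fell in CD45+ cells, with sums of 101.7 to 286.6 CPM after saline and 144.6 to 7566 CPM after bleomycin, and their part was not tested. In EpCAM+ cells C1ra stood at 5.55, 4.62, 6.25, 5.05 and 5.85 CPM and at 10.2 to 19.6 CPM (median 13.9) (log2 change 1.34 ± 0.15, adjusted p = 1.32e-06), again without overlap. The change of C1ra differed between CD45+ and triple-negative cells (2.07 ± 0.29, adjusted p = 1.85e-07; 1.78 ± 0.23 without Bleomycin_CD45_613) and between EpCAM+ and triple-negative cells (1.75 ± 0.30, adjusted p = 8.84e-06). C1s1 did not pass in CD45+ cells (adjusted p = 0.401), where Bleomycin_CD45_613 held 102.3 CPM against a group median of 9.85 and its estimate was 0.80 with and -0.20 without that library.

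C1rl, a protease related to C1r, rose in CD45+ cells from a low level to near that of EpCAM+ cells. It stood at 2.80, 2.78, 2.56, 1.93 and 3.66 CPM in saline CD45+ libraries and at 10.6 to 18.8 CPM (median 13.2) in bleomycin libraries, a log2 change of 2.40 ± 0.17 (adjusted p = 3.87e-08). The lowest bleomycin library was well above the highest saline one. C1rl also rose in EpCAM+ cells (log2 change 0.55 ± 0.14, adjusted p = 0.00259) and did not pass in CD31+ (adjusted p = 0.468) or triple-negative cells (adjusted p = 0.0815). The rise was larger in CD45+ than in EpCAM+ cells (1.81 ± 0.30, adjusted p = 3.01e-06). C1ra and C1s1 have near copies, C1rb and C1s2, and how reads were split between them is not given in the sources used here.

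Of the lectin pathway genes, Masp2, whose protease cleaves C4 and C2, fell in 3 fractions. Its log2 change was -0.89 ± 0.13 in CD31+ (adjusted p = 0.000119), -0.88 ± 0.16 in CD45+ (adjusted p = 0.000341) and -0.73 ± 0.10 in EpCAM+ cells (adjusted p = 1.88e-05), and -0.04 ± 0.10 in triple-negative cells (adjusted p = 0.768). Masp2 was highest in saline EpCAM+ cells, at 14.8, 18.7, 23.9, 21.7 and 22.53 CPM, and stood at 10.8 to 14.1 CPM (median 11.8) there after bleomycin, without overlap. The change in triple-negative cells differed from that in CD31+ (-0.81 ± 0.19, adjusted p = 0.00107), CD45+ (-0.87 ± 0.19, adjusted p = 0.000208) and EpCAM+ cells (-0.67 ± 0.19, adjusted p = 0.0044). Masp1, the other protease of this pathway, was at 7.63 to 12.8 CPM in saline triple-negative and 6.59 to 11.8 CPM in saline CD31+ libraries and passed in no fraction. Fcna, the ficolin of macrophages, was at 7.68 to 56.7 CPM in saline and 20.53 to 54.96 CPM (median 42.2) in bleomycin CD45+ libraries (adjusted p = 0.159), with Saline_CD45_648 the highest of all. Fcnb, a ficolin of the myeloid lineage, had 37 counts over the 5 saline and 20 over the 8 bleomycin CD45+ libraries and was removed for low counts.

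C3, the protein on which all pathways meet, was by far most abundant in triple-negative cells and fell there. It stood at 11040, 13260, 11000, 10990 and 11140 CPM in saline triple-negative libraries and at 5726 to 8751 CPM (median 7755) after bleomycin, a log2 change of -0.61 ± 0.12 (adjusted p = 0.000794). The groups did not overlap, and Saline_Negative_660 was the highest library. C2, the protease part of the classical C3 convertase, stood at 474, 311, 376, 374 and 401 CPM and at 219.7 to 381 CPM (median 260.1) in the same fraction (log2 change -0.47 ± 0.14, adjusted p = 0.00869), with overlap. C4b, the classical pathway C4, stood at 2824 ± 193 CPM (mean and SD, n = 5) in saline and 2536 ± 402 CPM (n = 8) in bleomycin triple-negative libraries and passed in no fraction; C4a is a near copy of it.

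In EpCAM+ cells C3 stood at 650.5 ± 33.1 CPM after saline and 734 ± 167 CPM after bleomycin, without passing the test (adjusted p = 0.206). In CD45+ cells C3 held 167 to 1106 CPM (median 261) after bleomycin, the highest value being that of Bleomycin_CD45_613, and its log2 change was 0.13 with and -0.32 without that library, neither past the threshold.

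The fall of C1ra, C1s1, C2, C3 and C7 in triple-negative cells stood beside a change of fibroblast markers. All 6 markers of adventitial fibroblasts fell there, their sum running from 8920 to 13310 CPM in saline and from 3125 to 4820 CPM in bleomycin libraries. Of 12 general mesenchymal markers 3 rose and 4 fell, with a summed level of 32350 to 47800 CPM in saline and 43080 to 77830 CPM in bleomycin libraries; none of the markers of either list was at 0 in a whole group. The part of the cell makeup in these falls was not tested. In 1 fit of all 51 libraries, which shares the spread over fractions, these 5 genes kept their direction (log2 changes of -0.43, -0.34, -0.50, -0.63 and -0.83) and did not pass.

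Cfb encodes factor B, the protease part of the alternative C3 convertase, and had the lowest p of any member for a difference between fractions. In CD45+ cells it stood at 36.6, 18.1, 18.8, 13.3 and 29.49 CPM in saline and at 189.7 to 309 CPM (median 229) in bleomycin libraries, a log2 change of 3.39 ± 0.23 (adjusted p = 6.78e-08). Each bleomycin library was far above each saline library. In EpCAM+ cells Cfb stood at 8.55, 6.41, 7.18, 6.41 and 11.6 CPM and at 15.8 to 36.8 CPM (median 24.9), a log2 change of 1.64 ± 0.22 (adjusted p = 2.36e-05), also without overlap. In CD31+ cells the log2 change was 0.63 ± 0.20 (adjusted p = 0.0197) with overlapping groups, and it did not pass without Saline_CD31_652 (0.53) or with the leukocyte marker level as a covariate (0.15).

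Triple-negative cells had the most Cfb in both treatments and no change that passed: 631.7, 553, 554, 548 and 559 CPM in saline libraries and 426 to 775 CPM (median 612.2) after bleomycin (log2 change 0.05 ± 0.13, adjusted p = 0.773). The change in CD45+ cells was larger than in triple-negative (3.32 ± 0.28, adjusted p = 4.79e-13), EpCAM+ (1.71 ± 0.29, adjusted p = 3.85e-06) and CD31+ cells (CD31+ minus CD45+ -2.69 ± 0.29, adjusted p = 2.36e-10). As a share of the triple-negative level, CD45+ cells held 4.08% after saline and 40.48% after bleomycin. The median share of 12 mesenchymal markers in bleomycin CD45+ cells was 1.92% (range 0.835% to 32.6%, the highest being Cspg4). The part of mesenchymal cells in the rise of Cfb was not tested. C2, which lies 87 bases from Cfb, did not pass in CD45+ cells (adjusted p = 0.813).

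Cfp, properdin, which stabilises the alternative convertase, was mainly a CD45+ RNA and rose there. It stood at 193, 145, 133, 149 and 235 CPM in saline and 207 to 356 CPM (median 285) in bleomycin libraries (log2 change 0.78 ± 0.15, adjusted p = 0.000445), with overlap, and passed in no other fraction. Cfd, factor D or adipsin, the protease that cleaves factor B, was near the limit of detection: it stood at 0.0944, 0.0942, 0.265, 0 and 0.421 CPM in saline triple-negative libraries and at 0.176 to 4.80 CPM (median 0.713) after bleomycin. That is 22 counts over 5 saline and 224 counts over 8 bleomycin libraries, a log2 change of 3.01 ± 0.99 (adjusted p = 0.0191), with overlapping groups and 1 saline library at 0.

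**Figure D4:**
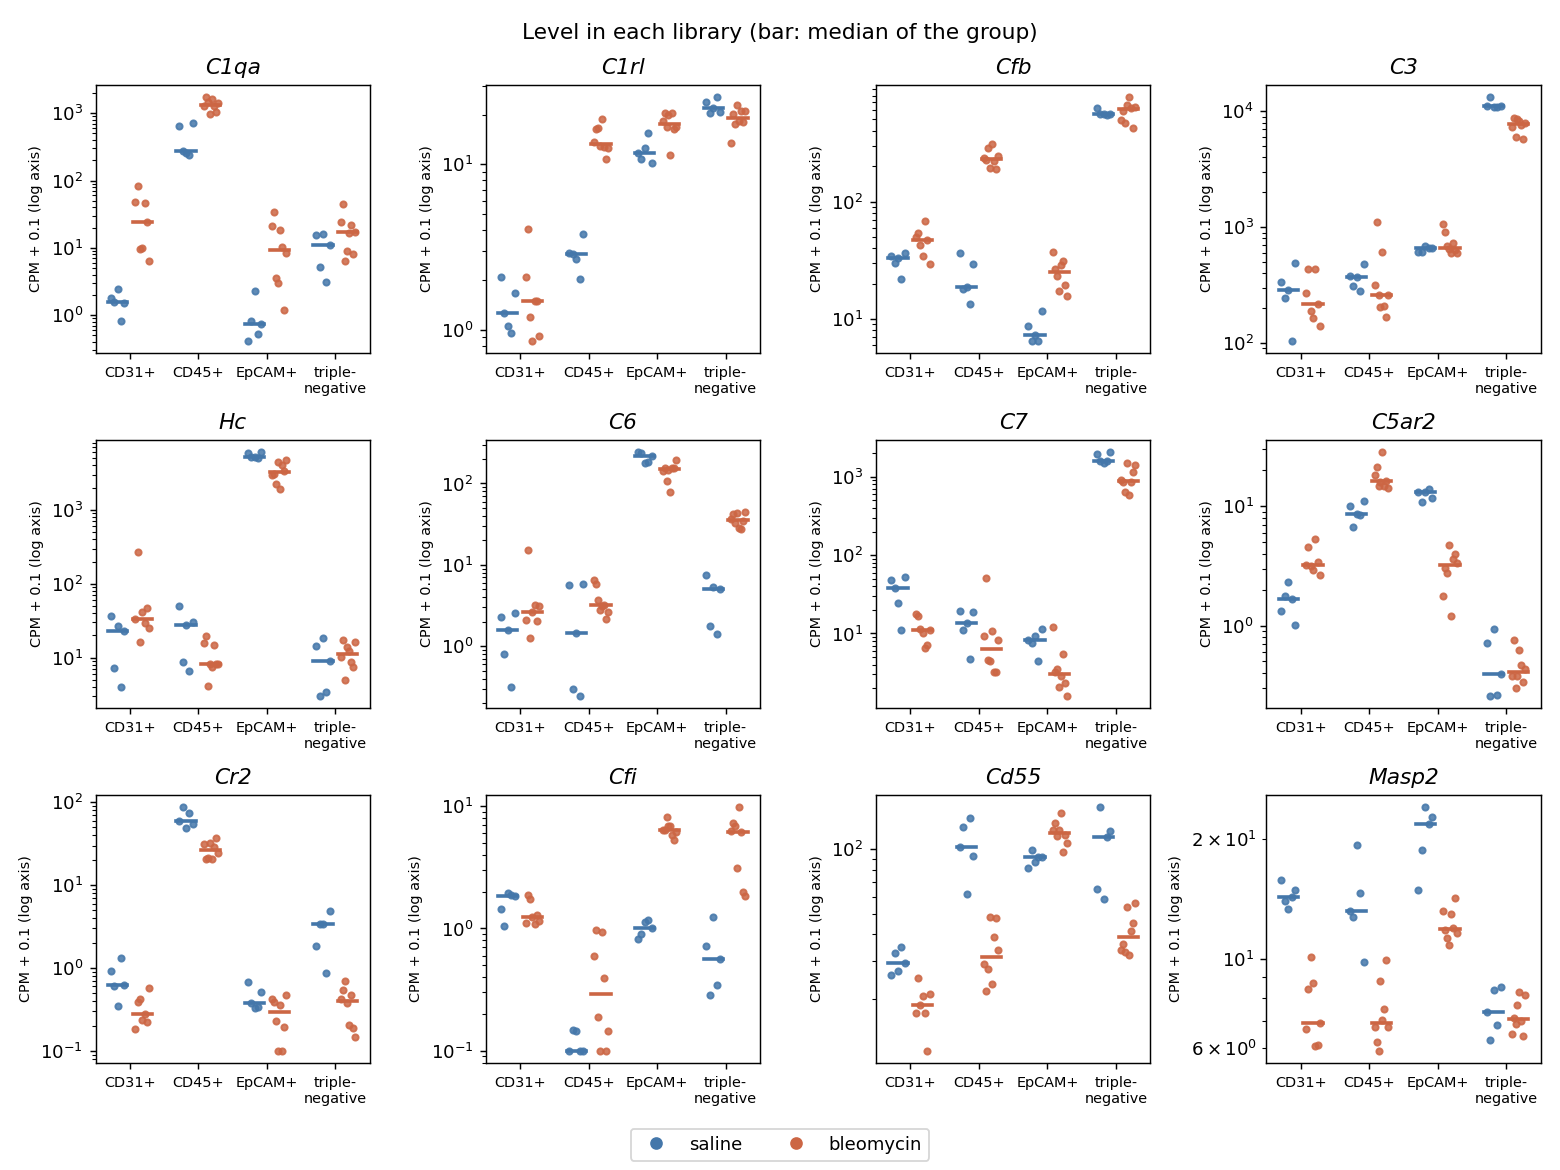
Level in every library (points, CPM plus 0.1, log axes that differ between panels) of 12 members in the 4 fractions; blue is saline, red bleomycin, and bars are group medians. Cfb rose in CD45+ and EpCAM+ cells, C5ar2 fell in EpCAM+ cells and rose in CD45+ and CD31+ cells, C6 rose in triple-negative cells, and Cd55 fell in CD45+ and triple-negative cells.

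Among the terminal components, Hc, the mouse gene of C5, and C6 were RNAs of EpCAM+ cells, and both fell there. Hc stood at 5828, 5185, 5215, 5044 and 6049 CPM in saline EpCAM+ libraries and at 1926 to 4733 CPM (median 3211) after bleomycin, a log2 change of -0.69 ± 0.19 (adjusted p = 0.00497), without overlap. C6, which binds C5b as the pore begins to form, stood at 244, 237, 179, 182 and 220.1 CPM and at 79.54 to 192 CPM (median 151) (log2 change -0.57 ± 0.17, adjusted p = 0.011), with overlap. Beside these falls, 8 of 8 alveolar type II markers fell in EpCAM+ cells, their sum running from 180000 to 196600 CPM in saline and 75580 to 119400 CPM in bleomycin libraries. Of 6 club and ciliated markers 5 rose and 0 fell (7962 to 20260 CPM, then 28780 to 48810 CPM). The part of this shift in epithelial makeup was not tested. It stands beside the other changes in EpCAM+ cells too, among them those of C1ra, C1rl, Masp2, Cfb, Cfi and Cd55. Of 12 mesenchymal markers 4 rose and 3 fell in EpCAM+ cells, and their part was not tested. Within the first run of columns Hc (log2 change -0.32) and C6 (-0.36) did not pass, nor did they in 1 fit of all 51 libraries (-0.69 and -0.57).

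C6 went the other way in triple-negative cells. It stood there at 7.41, 1.66, 5.26, 1.30 and 5.02 CPM in saline libraries and at 27.8 to 44.3 CPM (median 35.3) in bleomycin libraries, a log2 change of 3.15 ± 0.35 (adjusted p = 8.24e-06). Every bleomycin library was above every saline library. The effect differed between EpCAM+ and triple-negative cells (-3.70 ± 0.63, adjusted p = 9.76e-06) and between CD45+ and triple-negative cells (-2.70 ± 0.70, adjusted p = 0.00186). Bleomycin triple-negative cells held 25.49% of the EpCAM+ level of C6, where 12 epithelial markers had a median of 2.998% (range 0.492% to 22.6%), and Hc stood at 0.340% in the same libraries. Epithelial markers in triple-negative cells summed to 302.4 to 2273 CPM after saline and 673.4 to 1953 CPM after bleomycin, with 4 of 12 rising, 0 falling and none at 0 in a whole group. The part of epithelial cells in the rise of C6 was not tested.

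C7, which joins C5b and C6, was mainly a triple-negative RNA. It stood there at 1938, 1600, 1512, 1614 and 2076 CPM after saline and at 581 to 1519 CPM (median 889) after bleomycin, a log2 change of -0.81 ± 0.21 (adjusted p = 0.00485), with overlap. In CD31+ cells C7 stood at 47.4, 37.6, 24.7, 10.97 and 51.97 CPM and at 6.46 to 17.7 CPM (median 11.1), a log2 change of -1.53 ± 0.35 (adjusted p = 0.00356), with overlap through Saline_CD31_652. The fall of mesenchymal markers in CD31+ cells given with C1ra stands beside this one too, and its part was not tested. In CD45+ cells C7 did not pass (log2 change -0.20 ± 0.67), but without Bleomycin_CD45_613, which held 50.4 CPM, it was -1.13 and passed.

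C8g, the small chain of C8, stood at 2.66 to 4.76 CPM in saline CD31+ libraries, its highest group, and passed in no fraction. C9, the pore-forming component, had 10 counts over all 51 libraries, so no difference was detectable at this depth. The effect of bleomycin on Hc differed between CD31+ and EpCAM+ cells (2.53 ± 0.75, adjusted p = 0.00892); in CD31+ cells Bleomycin_CD31_621 held 268.2 CPM of Hc against a group median of 33.4. Without that library the difference was 1.48 ± 0.62 and did not pass (adjusted p = 0.0725, edgeR).

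The receptors of the small fragments C3a and C5a were CD45+ RNAs in saline lungs, apart from C5ar2. C3ar1, the C3a receptor, stood at 73.8, 39.1, 40.6, 38.51 and 79.1 CPM in saline CD45+ libraries and at 84.8 to 121 CPM (median 106) after bleomycin (log2 change 0.98 ± 0.18, adjusted p = 0.000489), without overlap. In CD31+ cells it stood at 0.473, 0.364, 0.620, 0.0427 and 0.175 CPM and at 0.950 to 9.49 CPM (median 2.25), a log2 change of 3.43 ± 0.73 (adjusted p = 0.00211), again without overlap, and 2.93 without Bleomycin_CD31_621. In EpCAM+ cells it stood at 0.0896, 0.424, 0.467, 0.281 and 0.377 CPM and at 0.320 to 3.57 CPM (median 1.24) (log2 change 2.25 ± 0.63, adjusted p = 0.00668), with overlap. The gain of macrophage and monocyte markers given with C1q applies to CD45+, CD31+ and EpCAM+ cells here too, and C3ar1 in bleomycin CD31+ cells was 3.42% of its CD45+ level. C5ar1, the main C5a receptor, stood at 166 ± 24.95 CPM in saline and 132 ± 41.6 CPM in bleomycin CD45+ libraries and passed in no fraction.

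C5ar2, the second C5a receptor, which does not couple to G proteins, moved in opposite directions. In EpCAM+ cells it stood at 13.1, 10.7, 13.2, 13.8 and 11.7 CPM after saline and at 1.10 to 4.61 CPM (median 3.10) after bleomycin, a log2 change of -2.07 ± 0.24 (adjusted p = 3.47e-06). All 8 bleomycin libraries were below all 5 saline libraries. In CD45+ cells C5ar2 stood at 9.89, 6.64, 8.54, 8.31 and 10.95 CPM and at 14.02 to 28.4 CPM (median 16.1), a log2 change of 1.05 ± 0.17 (adjusted p = 0.000106), every bleomycin library being the higher. In CD31+ cells it stood at 1.22, 1.67, 2.23, 1.58 and 0.916 CPM and at 2.54 to 5.20 CPM (median 3.11) (log2 change 1.24 ± 0.25, adjusted p = 0.0013), also without overlap. The effects in EpCAM+ cells differed from those in CD45+ (3.07 ± 0.34, adjusted p = 3.13e-10) and CD31+ cells (3.33 ± 0.36, adjusted p = 7.99e-10). The leading fraction thus passed from EpCAM+ after saline, where the difference from CD45+ cells was not past the threshold (-0.51 ± 0.24, adjusted p = 0.0616), to CD45+ after bleomycin (2.59 ± 0.22, adjusted p = 2.14e-12). The fall in EpCAM+ cells stood beside the fall of the alveolar type II markers, whose part was not tested. The rise in CD31+ cells stood beside the gain of leukocyte markers given with C1q, whose part was not tested either.

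Cr2, the C3d receptor of B cells and follicular dendritic cells, fell in 3 fractions. In CD45+ cells it stood at 60.1, 88.1, 49.54, 75.4 and 55.2 CPM in saline and at 20.45 to 37.6 CPM (median 26.6) in bleomycin libraries, a log2 change of -1.24 ± 0.18 (adjusted p = 6.34e-05), without overlap. In triple-negative cells it stood at 1.75, 3.33, 3.29, 0.773 and 4.72 CPM and at 0.0471 to 0.591 CPM (median 0.300) (log2 change -3.33 ± 0.48, adjusted p = 4.85e-05), also without overlap. In CD31+ cells, where it was under 1 CPM on average, the log2 change was -1.46 ± 0.45 (adjusted p = 0.0167), lost without Saline_CD31_652. All 6 B cell markers fell in CD45+ cells, summing to 777.8 to 1568 CPM after saline and 344.4 to 701.4 CPM after bleomycin, and all 6 fell in triple-negative cells, from 29.5 to 86.7 CPM to 1.99 to 9.09 CPM. The part of B cell number in the fall of Cr2 was not tested. The fall was larger in triple-negative than in CD45+ cells (2.08 ± 0.49, adjusted p = 0.000608).

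Vsig4, the macrophage receptor for C3 fragments known from resident macrophages, stayed low, at 0.495 to 4.92 CPM in saline and 0.818 to 4.17 CPM (median 2.30) in bleomycin CD45+ libraries, and did not pass (adjusted p = 0.443). C1qbp, a mostly mitochondrial protein that binds the heads of C1q, was evenly spread and rose in all 4 fractions. Its log2 changes were 0.28 ± 0.07 in CD31+ (adjusted p = 0.00439), 0.56 ± 0.07 in CD45+ (adjusted p = 1.04e-05), 0.44 ± 0.04 in EpCAM+ (adjusted p = 5.23e-07) and 0.46 ± 0.09 in triple-negative cells (adjusted p = 0.000653). Its saline means were 32.9 to 40.6 CPM, and the groups overlapped in CD31+ cells only.

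Of the regulators, Cfi, factor I, the protease that inactivates C3b and C4b, rose in EpCAM+ and triple-negative cells. In EpCAM+ cells it stood at 0.716, 0.801, 1.03, 1.08 and 0.906 CPM in saline and at 5.17 to 8.02 CPM (median 6.25) in bleomycin libraries, a log2 change of 2.83 ± 0.15 (adjusted p = 1.67e-09). In triple-negative cells it stood at 0.613, 0.188, 1.14, 0.244 and 0.464 CPM and at 1.74 to 9.76 CPM (median 6.10), a log2 change of 3.33 ± 0.54 (adjusted p = 0.000145). The groups did not overlap in either fraction. The shift in epithelial makeup given with Hc stands beside the rise in EpCAM+ cells, and its part was not tested. In CD31+ cells, its highest fraction after saline at 1.54 ± 0.388 CPM (SD, n = 5), Cfi did not pass (adjusted p = 0.431), and that effect differed from the one in EpCAM+ (-3.03 ± 0.58, adjusted p = 7.02e-05) and triple-negative cells (-3.52 ± 0.60, adjusted p = 1.33e-05).

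Cd55, decay-accelerating factor, which takes apart the C3 convertases on the cell surface, fell in 3 fractions and rose in EpCAM+ cells. In CD45+ cells it stood at 102, 126, 61.4, 139 and 93.03 CPM in saline and at 21.7 to 48.4 CPM (median 31.2) in bleomycin libraries, a log2 change of -1.59 ± 0.24 (adjusted p = 9e-05). In triple-negative cells it stood at 65.3, 157, 58.6, 114 and 121 CPM and at 32.01 to 56.1 CPM (median 38.8), a log2 change of -1.31 ± 0.23 (adjusted p = 0.000255). Neither pair of groups overlapped, though the saline libraries were widely spread. In CD31+ cells Cd55 fell by 0.64 on the log2 scale (adjusted p = 0.00506), without overlap. In EpCAM+ cells it stood at 81.6, 98.6, 86.6, 91.54 and 92.2 CPM and at 96.9 to 147 CPM (median 119) (log2 change 0.43 ± 0.08, adjusted p = 0.00029), with overlap; the rise in EpCAM+ cells did not pass in 1 fit of all 51 libraries (0.42) or within the first run of columns (0.28). Beside the fall in CD45+ cells, 6 of 6 B cell markers fell (sums given with Cr2), as did 5 of 5 T cell markers (452.2 to 905.1 CPM after saline, 288.4 to 393.8 CPM after bleomycin) and 3 of 8 neutrophil markers with 0 rising (1699 to 2911 CPM, then 540.9 to 3021 CPM). Beside the fall in triple-negative cells, 6 of 6 adventitial fibroblast and 6 of 6 B cell markers fell. The part of these cells in the falls of Cd55 was not tested.

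The effects on Cd55 in EpCAM+ cells differed from those in CD45+ (-2.06 ± 0.29, adjusted p = 1.22e-07), triple-negative (1.76 ± 0.29, adjusted p = 4.93e-06) and CD31+ cells (-1.04 ± 0.29, adjusted p = 0.0062). After saline, CD45+, triple-negative and EpCAM+ cells were not told apart in their level of Cd55 (CD45+ against triple-negative 0.00 ± 0.23, adjusted p = 0.991), while after bleomycin EpCAM+ cells held the most (EpCAM+ against triple-negative 1.54 ± 0.17, adjusted p = 1.39e-09). A near copy, Cd55b, also rose in EpCAM+ cells, from 0.488 ± 0.153 to 1.20 ± 0.450 CPM (log2 change 1.29 ± 0.31, adjusted p = 0.0021), at a level that is small beside Cd55.

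Cd59a, which blocks the membrane pore, was highest in triple-negative and EpCAM+ cells. In CD45+ cells it stood at 1.99, 1.17, 0.764, 0.580 and 1.90 CPM after saline and at 1.44 to 6.49 CPM (median 2.31) after bleomycin (log2 change 1.19 ± 0.39, adjusted p = 0.0188), with overlap, and the call was lost without Saline_CD45_646 (1.05) or Saline_CD45_647 (1.02); without Bleomycin_CD45_613 the log2 change was 0.88. It rose slightly in triple-negative cells, from 32.1 ± 3.39 to 39.3 ± 4.30 CPM (log2 change 0.30 ± 0.09, adjusted p = 0.00873), and did not pass in 1 fit of all 51 libraries (0.28). Cr1l, the rodent regulator also called Crry, stood at 95.6 ± 5.08 CPM in saline CD31+ cells and fell by 0.19 in EpCAM+ (adjusted p = 0.0109) and by 0.25 in triple-negative cells (adjusted p = 0.000471) on the log2 scale. Cd46, a cofactor of factor I best known in the mouse from the testis, was under 6 CPM in every library and fell in CD31+ (log2 change -0.75 ± 0.19, adjusted p = 0.00482) and CD45+ cells (-0.64 ± 0.22, adjusted p = 0.0244). The CD45+ call on Cd46 was lost without Saline_CD45_644 (-0.58) or Saline_CD45_646 (-0.54).

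Counted by fraction, the members that passed with a change of at least 2-fold were 5 higher and 2 lower of 27 tested in CD31+, 8 and 2 of 28 in CD45+, 7 and 1 of 25 in EpCAM+ and 3 and 2 of 27 in triple-negative cells. Over all genes the matching shares were 7.07% and 4.44%, 7.23% and 8.46%, 9.66% and 4.80%, and 6.21% and 8.64%. After bleomycin the highest mean was in CD45+ cells for 11 members, in triple-negative cells for 11, in EpCAM+ cells for 5 and in CD31+ cells for 3, with C9 and Fcnb under 1 CPM throughout. The members whose leading fraction was another one than after saline were C5ar2, Cfi and Cd55, and Cfd passed 1 CPM in triple-negative cells. For Cfi the 2 highest fractions were not told apart in either treatment (CD31+ against EpCAM+ after saline 0.69 ± 0.35, adjusted p = 0.0823; EpCAM+ against triple-negative after bleomycin 0.28 ± 0.34, adjusted p = 0.454).

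A further 28 genes of the pathway were listed, among them the fluid regulators, collectins, pentraxins and integrin receptors. In CD31+ cells 7 of 14 tested were higher and 1 lower, in CD45+ 5 of 12 and 2, in EpCAM+ 9 of 17 and 3, and in triple-negative cells 7 of 17 and 5. The background, as above, was 24.2% of all genes higher and 24.6% lower for the CD31+ fraction. For the CD45+ fraction it was 28.4% higher with 26.8% lower, for EpCAM+ cells 31.2% with 28.9%, and for triple-negative cells 27.7% each way. Serping1, the C1 inhibitor, stood at 3889 ± 139.5 CPM in saline and 2836 ± 368 CPM in bleomycin triple-negative cells (log2 change -0.45 ± 0.10, adjusted p = 0.00149). Clu, clusterin, which binds the forming pore, rose in EpCAM+ cells from 366 ± 62.2 to 1653 ± 308 CPM (log2 change 2.19 ± 0.15, adjusted p = 1.39e-08) and fell in triple-negative cells (-0.52 ± 0.13, adjusted p = 0.00386). Vtn, vitronectin, another inhibitor of the pore, fell in triple-negative cells from 31.4 ± 13.4 to 4.48 ± 1.60 CPM (log2 change -2.80 ± 0.32, adjusted p = 9.05e-06).

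Ptx3, a pentraxin that binds C1q, rose in CD31+ cells from 4.51 ± 2.69 to 53.4 ± 35.1 CPM (log2 change 3.60 ± 0.50, adjusted p = 0.00012) and fell in triple-negative cells (-2.01 ± 0.41, adjusted p = 0.000966). Mbl1, a mannose-binding lectin, fell in EpCAM+ cells from 27.1 ± 3.70 to 9.91 ± 2.01 CPM (log2 change -1.44 ± 0.13, adjusted p = 1.73e-07). The integrin chains of complement receptors CR3 and CR4 moved in different directions in CD45+ cells: Itgax, of CR4, rose (log2 change 2.02 ± 0.11, adjusted p = 3.87e-09) and Itgam, of CR3, fell (-0.61 ± 0.11, adjusted p = 0.000219), while their shared chain Itgb2 rose (0.76 ± 0.08, adjusted p = 1.36e-06). Colec12, a membrane collectin, rose in triple-negative cells (log2 change 0.64 ± 0.10, adjusted p = 0.000108) and Colec11, a soluble one, fell (-0.95 ± 0.21, adjusted p = 0.00151).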

How the data were processed

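Total RNA of sorted lung cells was sequenced as stranded libraries, per the labels' protocols. The authors deposited raw read counts per Entrez gene identifier as 1 table and as 51 files of single libraries, which held the same counts. The build was GRCm38, per the submitters' processing notes, and which aligner, counting program and strand setting were used is not given in the sources used here. Gene symbols with their positions were taken from RefSeq (GRCm38.p6) and, for 78 identifiers, symbols from GENCODE; 5401 identifiers without a symbol held 1.58% of counts. The members, gene lists and tests were chosen with earlier results of these data known.

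Groups were taken from the labels. Library numbers in the labels are not shared between groups and do not tie libraries to animals, so the p-values measure the spread between these libraries only. Each fraction was fitted alone with edgeR 4.0.16 in R 4.3.3 (filterByExpr with a minimum count of 10, TMM scaling, robust quasi-likelihood F test, two-sided, Benjamini-Hochberg over all genes of the fraction, threshold 0.05). Differences of the effect between fractions came from 1 fit of all 51 libraries in 8 groups, and levels between fractions from fits within each treatment. Printed levels are CPM on TMM-scaled totals of all 51 libraries; that scale differs from the scale of the fits by at most 0.05 log2 between treatments. Levels per kb used exon lengths of coding transcripts. The tests were tried on simulated counts. Each saline value is printed where a member passed with an absolute log2 change and a mean CPM of at least 1. Bleomycin libraries are then given by range and median. Some other results are given in the same way, and the rest by range, by mean and SD, by log2 change or by count.

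Alternatives were RLE and upper quartile scaling, DESeq2 1.42.0, no or a stricter low count filter (1 CPM in 5 libraries), 1 fit of all libraries, a marker level as covariate and leaving out each library. The deposited table lists its libraries in 2 runs of columns, which no label explains; that run as a covariate, fits within each run, and differences between fractions without Bleomycin_CD31_621 or Bleomycin_CD45_613 were added after the data were seen.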

Additional observations from a re-analysis of the deposited data

Results flagged for a closer look

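In groups of 5 to 8 libraries, 1 library stood far from the others for 6 of 114 sets of values of members that are described above. Chance flags about 1 in 20 such groups. Only the groups of member results past the threshold were screened. The screen thus leaves out Hc in Bleomycin_CD31_621 (268.2 CPM), and C1s1 (102.3 CPM) and C7 (50.4 CPM) in Bleomycin_CD45_613. The share flagged does not describe the groups that were not screened. C1qbp stood at 33.2 CPM in Bleomycin_CD31_621, below its group. C1ra stood at 55.4 CPM in Bleomycin_CD45_613, above its group, and C1qa at 2.19 CPM in Saline_EpCAM_656, above its group. C1rl stood at 11.4 CPM in Bleomycin_EpCAM_632, below its group. Saline_Negative_660 was above its group for both C1ra (552 CPM) and C3 (13260 CPM).

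The effect of bleomycin differed between the 4 sorted fractions for 19 members, by the F test over the interaction terms (edgeR, adjusted over all genes). The adjusted p was 0.000573 for C1qa, 0.00053 for C1qb and 0.000377 for C1qc, whose rise was larger in CD31+ and EpCAM+ than in CD45+ cells. It was 1.61e-09 for C1ra, 5.89e-09 for C1rl, 9.72e-13 for Cfb and 0.0144 for Cfp. C1rl and Cfb rose more in CD45+ cells than in each other fraction, while the rises of C1ra in CD45+ and EpCAM+ cells were not told apart (0.31 ± 0.31, adjusted p = 0.446). For C5ar2 (3.28e-11) and Cd55 (2.09e-07) the effects in EpCAM+ and CD45+ cells had opposite signs, and for C6 (2.25e-05) those in EpCAM+ and triple-negative cells. It was 3.3e-06 for Cfi, 0.000291 for Masp2, 0.000391 for C3ar1, 0.00146 for Cr2, 0.00339 for Hc, 0.0073 for Cr1l and 0.0118 for Cd59a. The calls on C4b (0.0283) and C5ar1 (0.0409) were near the threshold: that on C4b was lost without any 1 of 3 libraries (Saline_CD45_645, Saline_CD45_646 or Saline_CD45_647) and that on C5ar1 without any 1 of 21 libraries.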

How the results depend on the processing

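Of the 57 member results past the threshold in a fraction, 0 changed direction under any alternative. Counting only the fits in which a member was still tested, 31 passed under every alternative and 53 when each library was left out in turn. The 4 others were Cd46 and Cd59a in CD45+ and Cfb and Cr2 in CD31+ cells. A member removed for low counts is not counted as lost there. In triple-negative cells 4 members in place of 5 were higher without some single bleomycin libraries. With the stricter filter 4 were higher there and 7 in place of 8 lower. Within the first run of columns the count of members past the threshold was 9 in place of 14 in CD31+ and 7 in place of 15 in EpCAM+ cells, with fewer libraries in the fit. In 1 fit of all 51 libraries it was 7 in place of 13 in triple-negative cells, and the cause was not tested. With a marker level as covariate, 10 members in place of 5 were higher in triple-negative cells, and 8 were lower as before. All genes higher there numbered 4524 in place of 4624. In CD45+ cells 16 in place of 11 members were then higher and 3 in place of 4 lower. In CD31+ cells 6 in place of 7 were higher and 10 in place of 7 lower, and in EpCAM+ cells 10 were higher and 6 in place of 5 lower. Of the 50 results that did not pass, 27 passed under some alternative and 28 changed sign under one. Of the differences between 2 fractions past the threshold, 3 of 28 that involve CD31+ cells did not pass without Bleomycin_CD31_621 and 3 of 33 that involve CD45+ cells did not without Bleomycin_CD45_613. In saline lungs the leading fraction was the same on plain totals for all 32 members. In bleomycin lungs plain totals put C1rl highest in EpCAM+ cells (18.16 CPM, triple-negative 17.83). They put Masp1 highest in CD31+ cells (11.34 CPM, triple-negative 10.77) and C8g in CD45+ cells (2.73 CPM, CD31+ 2.67). No paired analysis was possible because the groups share no replicate number in the labels. Depth limits C9, Fcnb, Cfd and Vsig4, and levels far under the leading fraction stand beside markers of other cells.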
